A study of Mus musculus with 9 samples.

Results

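The 7 genes described here make, receive and hold back plasmin, or start and restrain clotting: Plg, Plat, Plau, Plaur, Serpinf2, Thbd and F3. They were taken by gene name from tables of 42188 genes in mouse liver, each name matched 1 row, and all 7 were among the 14603 genes with enough counts to be tested. MSA_ConA livers came from mice given 250 mg/kg MSA into the peritoneum and, 6 h later, 20 mg/kg concanavalin A into a tail vein. ConA livers came from mice given the same dose of concanavalin A alone, and Control livers from mice given phosphate-buffered saline (PBS) into a tail vein. Livers of the groups given concanavalin A were collected 12 h after it, and each group holds 3 libraries, numbered 1 to 3. All mice are labelled as wild-type C57BL/6J males of 8 weeks and 20 to 25 g. The study's title names mesaconate, a small dicarboxylic acid close to itaconate, which MSA is taken to stand for here. Concanavalin A is a lectin from jack beans, used in mice to set off a hepatitis driven by T cells.

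Plasmin is the protease that dissolves fibrin clots, and the liver secretes its precursor, plasminogen. Tissue-type and urokinase-type activators cut plasminogen into plasmin, the urokinase receptor holds urokinase on the cell surface, and alpha-2-antiplasmin inactivates plasmin. Clotting itself is started by tissue factor, which binds factor VII, and is restrained by thrombomodulin, which turns thrombin toward activation of protein C. In concanavalin A hepatitis, clot formation in the liver sinusoids is a known feature of the injury.

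By transcripts of sex and strain, 6 of the 9 libraries went against their labels, and the split followed the library number in every group. Levels are in CPM, counts per 1000000 of a library total scaled by the trimmed mean of M values (TMM). Xist, the female-specific RNA that silences an X chromosome, reached no more than 0.485 CPM in number 1, whereas each library of numbers 2 and 3 had 667 CPM or more. Nnt, part of which C57BL/6J mice lack, lay between 29.8 and 34.7 CPM in number 1, against 168 to 266 CPM elsewhere. Each library is therefore named below as it is labelled, and each result is given over all libraries, within number 1 and within numbers 2 and 3. Library totals ran from 13294600 to 17276391 counts, with 1 count equal to between 0.0516 and 0.132 CPM. The summed CPM of 6 hepatocyte markers ran from 96168 to 147241 across MSA_ConA, from 89018 to 108715 across ConA and from 94787 to 118506 across Control, with no marker at 0 in all libraries.

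The 7 genes covered a wide range of levels per length. The authors' FPKM scale divides counts by gene length and by a library size other than the library total. On it, Plg averaged 927 ± 495 in MSA_ConA, 947 ± 293 in ConA and 910 ± 126 in Control (SD, n = 3 each). Serpinf2 averaged 383 ± 128, 418 ± 107 and 410 ± 34.2 FPKM in the same groups (SD, n = 3 each). These hepatocyte products stood above the other members in every library. In Control livers the order continued with F3 at 1.60 ± 0.324, Thbd at 0.940 ± 0.181, Plau at 0.376 ± 0.109, Plat at 0.275 ± 0.0999 and Plaur at 0.185 ± 0.137 FPKM (SD, n = 3). The SD ranges of Plau, Plat and Plaur overlapped one another in Control, while those of F3 and Thbd overlapped no neighbour. In ConA livers the order of the low members cannot be told apart, because the SD of Plaur (15.8 ± 27.3 FPKM), F3 (8.82 ± 12.1 FPKM) and Thbd (4.71 ± 6.32 FPKM) exceeded each mean (n = 3).

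**Figure D1:**
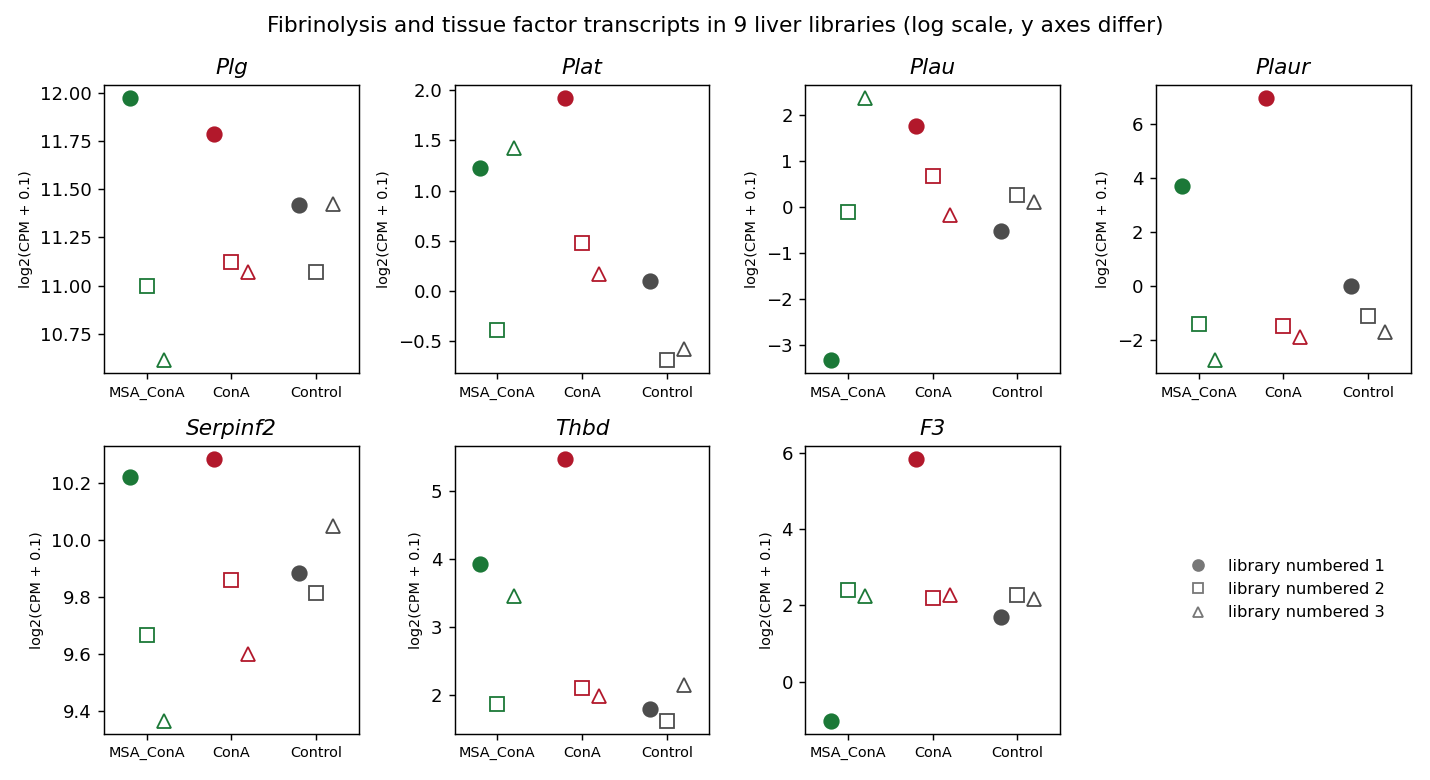
TMM-scaled level of each of the 7 genes, as log2(CPM + 0.1), in every library of the MSA_ConA, ConA and Control groups; filled circles are libraries numbered 1, open squares number 2 and open triangles number 3, and the y axes differ. Plaur at 124 CPM, F3 at 57.2 CPM and Thbd at 44.6 CPM are highest in the library labelled ConA 1, while F3 at 0.396 CPM and Plau at 0 are lowest in the library labelled MSA_ConA 1.

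None of the 7 genes passed the test when all 3 libraries of each group were compared, and neither did any other gene. With edgeR's quasi-likelihood test and Benjamini-Hochberg adjustment over 14603 genes, 0 genes (0%) had an adjusted p under 0.05 for ConA against Control, MSA_ConA against ConA, and MSA_ConA against Control. Unadjusted p-values under 0.05 numbered 563, 248 and 730 in these comparisons in that order. None of these counts was above the share of tests that this threshold gives when no gene differs. DESeq2 called 2, 0 and 55 genes, none of them a member, though it gave Plaur and F3 no adjusted p. All 7 members had a positive fitted log2 fold change for ConA against Control, with a median of 1.52 beside 0.07 over all genes tested. The largest was that of Plaur, at 6.42 (SE 2.76, adjusted p = 0.9997). Without the library labelled ConA 1 the Plaur value was -1.13. Between MSA_ConA and ConA the members' median was -0.15, beside 0.02 over all genes, and between MSA_ConA and Control it was 1.16, beside 0.07. In numbers 2 and 3 alone, 4 of the 7 members were above 0 for ConA over Control. Their median there was 0.0213, beside 0.0212 over all genes.

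Within the libraries numbered 1, by contrast, Plaur, F3 and Thbd were higher in the library labelled ConA 1 than in the library labelled Control 1. This comparison has 1 library a side and no replicate check. Its test took the spread from the pairs numbered 2 and 3 (3 residual degrees of freedom) and assumed that a lone library varies as they do. In all, 6138 of 14603 genes (42%) were called in it, 21% of all genes higher and 21.1% lower, so that 3 of 7 members called higher stands beside a background of 21%. Of all calls in it, 49.9% were higher with TMM and 27.0% by library totals. In the libraries numbered 2 and 3, 0 genes (0%) were called between ConA and Control, where 1648 had an unadjusted p under 0.05. DESeq2 called 59 genes there, none of them a member, and gave no adjusted p to Plat, Plau, Plaur, Thbd or F3. The fold change itself differed between number 1 and numbers 2 and 3 for 4537 genes (31.1%), with 15.7% more positive and 15.4% more negative in number 1, and among the more positive were the same 3 members.

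Plg encodes plasminogen and Serpinf2 encodes alpha-2-antiplasmin, the main fast inhibitor of plasmin, and with all 9 libraries neither passed the edgeR test in any comparison. Plg stood at 4019, 2041 and 1567 CPM across MSA_ConA 1, 2 and 3, at 3529.8, 2227 and 2149 CPM across ConA 1, 2 and 3 and at 2739, 2146 and 2743 CPM across Control 1, 2 and 3. The ranges of the 3 groups overlapped. Serpinf2 measured 1193, 812 and 659.5 CPM in MSA_ConA, 1247, 929 and 775 CPM in ConA, and 945, 899 and 1059 CPM in Control, in the same order of numbers, and its groups overlapped too. In both groups given concanavalin A, number 1 was the highest library for both genes with TMM. By library totals ConA 1 was instead the lowest ConA library for both, and MSA_ConA 1 the lowest MSA_ConA library for Serpinf2. In numbers 2 and 3, the log2 fold change of MSA_ConA over Control was -0.44 for Plg (SE 0.21, adjusted p = 0.245, edgeR) and -0.41 for Serpinf2 (SE 0.19, adjusted p = 0.233, edgeR).

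The direction in number 1 depended on the scaling. With TMM, Plg was 0.55 higher on the log2 scale in MSA_ConA 1 than in Control 1 (SE 0.29, adjusted p = 0.176, edgeR), and Serpinf2 was 0.34 higher (SE 0.27, adjusted p = 0.352, edgeR). Scaled by library totals, the same values were -0.18 for Plg and -0.40 for Serpinf2. In CPM of the library total, Plg measured 2292 CPM in MSA_ConA 1, 2372 CPM in ConA 1 and 2598 CPM in Control 1. TMM factors of these libraries were 0.571, 0.674 and 0.950 in that order, against 1.11 to 1.26 in the 6 others. Totals moved the median of all genes by -0.73 for MSA_ConA over Control, -0.49 for ConA over Control and -0.24 for MSA_ConA over ConA, all in number 1.

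**Figure D2:**
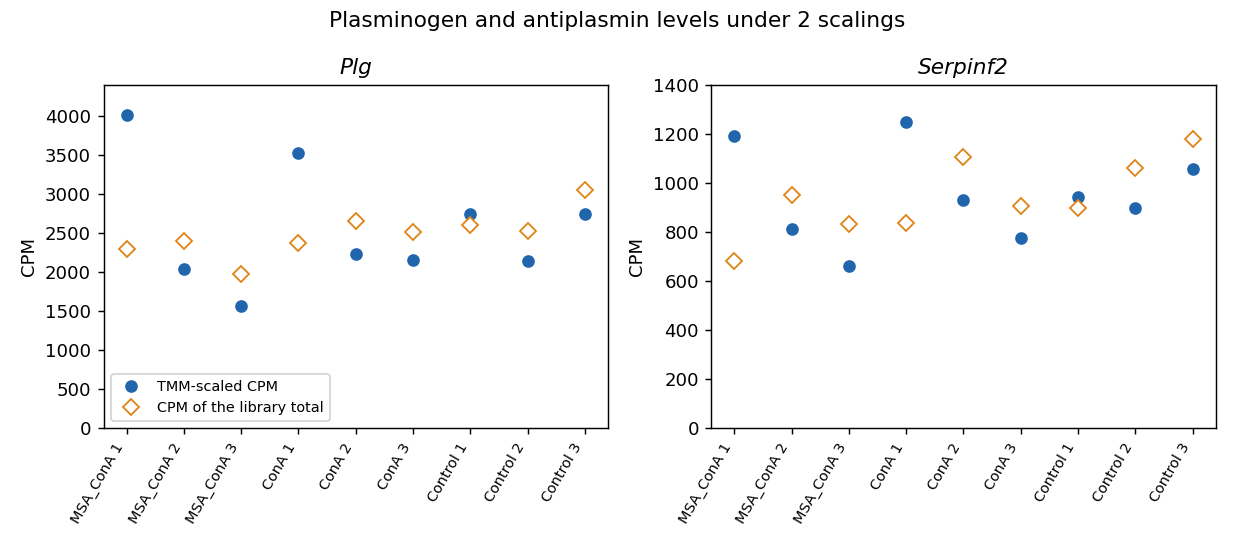
Level of Plg (left) and Serpinf2 (right) in each library, from MSA_ConA to ConA to Control, in CPM scaled by TMM (filled circles) and in CPM of the library total (open diamonds), on axes from 0. In MSA_ConA 1 the Plg value is 4019 CPM by TMM and 2292 CPM of the total, and in libraries numbered 2 and 3 the values scaled by TMM are the lower ones.

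The plasminogen activators were near the limit of detection. Plat, the tissue-type activator that endothelium releases, stood at 2.24, 0.665 and 2.58 CPM across MSA_ConA 1, 2 and 3, at 3.69, 1.29 and 1.02 CPM across ConA 1, 2 and 3 and at 0.969, 0.522 and 0.573 CPM across Control 1, 2 and 3. It was the 1 member whose ConA and Control libraries did not overlap, a pattern that 5.66% of all genes showed in the higher direction and 6.64% in the lower. No member's libraries stood apart in this way between MSA_ConA and ConA, where 2.34% of all genes did so higher and 2.54% lower, or between MSA_ConA and Control, where 6.44% and 7.34% did. The counts behind it were 38, 25 and 18 in ConA against 13, 10 and 11 in Control. The log2 fold change was 1.52 over all libraries (SE 0.74), 1.92 within number 1 (SE 0.91, adjusted p = 0.127, edgeR) and 1.07 within numbers 2 and 3 (SE 0.67, adjusted p = 0.526, edgeR). The value within number 1 was called on leaving out MSA_ConA 2 (adjusted p = 0.0402) or MSA_ConA 3 (adjusted p = 0.0417). MSA_ConA overlapped both other groups for Plat, since MSA_ConA 2 lay among the Control libraries.

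Plau, urokinase, stood at 0, 0.831 and 5.11 CPM across MSA_ConA 1, 2 and 3, at 3.30, 1.497 and 0.796 CPM across ConA 1, 2 and 3 and at 0.597, 1.10 and 0.989 CPM across Control 1, 2 and 3. The highest and the lowest of the 9 libraries were thus both MSA_ConA, with 99 counts in number 3 and none in number 1. The library labelled ConA 1 had 34 counts. With a floor of 3 counts put in for MSA_ConA 1, Plau was 8.34-fold lower there, which is not a bound. The lower limit of the counting interval, which covers counting error only, was 6.42-fold lower. Plau was called lower in MSA_ConA 1 than in ConA 1 (adjusted p = 0.0498, edgeR). That call was lost (adjusted p 0.0638 to 0.0800) on leaving out Control 2, Control 3, ConA 2 or ConA 3. The same log2 fold change in numbers 2 and 3 was 1.37 (SE 0.78, adjusted p = 0.919, edgeR). For ConA over Control, Plau gave 2.45 within number 1 (SE 1.23, adjusted p = 0.146, edgeR), called without MSA_ConA 2 (adjusted p = 0.0290) or MSA_ConA 3 (adjusted p = 0.0301). The lone high value of MSA_ConA 3 came from the library with the highest sums of muscle, stellate cell and adipocyte markers. The 8 skeletal muscle markers summed to 3923 CPM there, against 121 and 276 CPM in MSA_ConA 1 and 2, 3.11 to 259 CPM across ConA, and 0.885 to 2.14 CPM across Control. In MSA_ConA 1, Atp2a1 alone gave 119 CPM, and no other muscle marker exceeded 0.923 CPM. The 6 stellate cell and fibroblast markers summed to 149.7 to 637 CPM in MSA_ConA, 283 to 367 CPM in ConA and 179.9 to 261 CPM in Control, highest in MSA_ConA 3. Des gave 157 CPM of that sum. Lrat was not highest there (22.9 CPM, against 35.1 CPM in ConA 3), nor was Pdgfrb (18.3 CPM, against 21.6 CPM in ConA 1). The rest of the list was highest in MSA_ConA 3. The 6 adipocyte markers summed to 7.59 to 120.2 CPM in MSA_ConA, 6.76 to 97.9 CPM in ConA and 5.36 to 12.6 CPM in Control. No marker of these lists was at 0 in all libraries, and their part in the Plat, Plau and Thbd values of MSA_ConA 3 was not tested. In bulk tissue, more cells of a type and more RNA per cell cannot be told apart.

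Plaur, the receptor that gathers urokinase on leukocytes and other migrating cells, had the widest fold range of the 7 genes, leaving aside Plau and its library without a count. It stood at 12.9, 0.277 and 0.0516 CPM across MSA_ConA 1, 2 and 3, at 124, 0.258 and 0.171 CPM across ConA 1, 2 and 3 and at 0.895, 0.366 and 0.208 CPM across Control 1, 2 and 3. The libraries numbered 2 and 3 held 1 to 7 counts each, in all groups, whereas number 1 held 98 in MSA_ConA, 1273 in ConA and 12 in Control. Within number 1, ConA was 138-fold higher than Control (95% counting interval 78.8 to 268), a log2 fold change of 7.10 (SE 0.51, adjusted p = 0.000169, edgeR). MSA_ConA 1 was 9.56-fold lower than ConA 1 (7.78 to 11.9, adjusted p = 0.00201, edgeR) and 14.4-fold higher than Control 1 (7.91 to 28.9, adjusted p = 0.00135, edgeR). The counting intervals are exact and cover counting error between 2 libraries, not the spread between mice. In numbers 2 and 3 the log2 fold change of ConA over Control was -0.40 (SE 0.62, adjusted p = 0.804, edgeR), from counts of 5 and 3 against 7 and 4.

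Thbd, thrombomodulin, an endothelial receptor, stood at 15.2, 3.55 and 10.9 CPM across MSA_ConA 1, 2 and 3, at 44.6, 4.18 and 3.86 CPM across ConA 1, 2 and 3 and at 3.36, 2.98 and 4.32 CPM across Control 1, 2 and 3. Outside ConA 1, MSA_ConA 1 and MSA_ConA 3, the 6 other libraries lay within 2.98 to 4.32 CPM. Within number 1, ConA was 13.3-fold higher than Control (counting interval 9.76 to 18.5, adjusted p = 0.00642, edgeR). MSA_ConA 1 was 4.52-fold higher than Control 1 (3.18 to 6.53, adjusted p = 0.0457, edgeR), a call lost when scaled by library totals (log2 fold change 1.44, adjusted p = 0.146) and on leaving out Control 2, Control 3, ConA 2 or ConA 3 (adjusted p 0.0668 to 0.0757). Between MSA_ConA 1 and ConA 1 the log2 fold change was -1.55 (SE 0.66, adjusted p = 0.117, edgeR), called without MSA_ConA 2 (adjusted p = 0.0137) or MSA_ConA 3 (adjusted p = 0.00993). ConA over Control in numbers 2 and 3 was 0.14 (SE 0.49, adjusted p = 0.916, edgeR). The 8 endothelial markers summed to 238 to 366 CPM in MSA_ConA, 264 to 292 CPM in ConA and 300.0 to 357 CPM in Control, and 3 of 8 were higher in CPM in ConA 1 than in Control 1. None was at 0 in all libraries, and the summed level was lower in ConA 1 (264 CPM) than in Control 1 (347 CPM).

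F3, tissue factor, was nearly level in numbers 2 and 3 and spread widely in number 1. It stood at 0.396, 5.21 and 4.69 CPM across MSA_ConA 1, 2 and 3, at 57.2, 4.49 and 4.77 CPM across ConA 1, 2 and 3 and at 3.13, 4.75 and 4.37 CPM across Control 1, 2 and 3. The 6 libraries numbered 2 and 3 stayed within 4.37 to 5.21 CPM, and the counts in number 1 were 3 in MSA_ConA, 589 in ConA and 42 in Control. ConA 1 was 18.3-fold higher than Control 1 (counting interval 13.3 to 25.6), a log2 fold change of 4.19 (SE 0.30, adjusted p = 0.000171, edgeR). In numbers 2 and 3 the same value was 0.02 (SE 0.19, adjusted p = 0.972, edgeR), beside 0.10 for MSA_ConA over ConA and 0.12 for MSA_ConA over Control.

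F3 was also lower in MSA_ConA 1 than in either other library numbered 1. Against ConA 1 it was 144-fold lower (counting interval 49.2 to 703, adjusted p = 0.000126, edgeR), and against Control 1 it was 7.91-fold lower (2.53 to 39.9, adjusted p = 0.00245, edgeR). Plaur and Thbd in MSA_ConA 1, by comparison, lay between ConA 1 and Control 1. Of the 14603 genes, 4144 (28.4%) were called between MSA_ConA 1 and ConA 1 and 5653 (38.7%) between MSA_ConA 1 and Control 1. Higher calls made up 46.5% and 48.5% of these with TMM, and 31.1% and 17.8% by library totals. The members called lower between MSA_ConA 1 and ConA 1 were F3, Plaur and Plau, 3 of 7 against 15.2% of all genes, and none was called higher. Between MSA_ConA 1 and Control 1, Plaur and Thbd were called higher, beside 18.8% of all genes, and F3 lower, beside 19.9%. Both comparisons of ConA 1 use the same library, so they are not independent. In numbers 2 and 3, 0 genes (0%) were called between MSA_ConA and ConA (786 with an unadjusted p under 0.05, 2 called by DESeq2) and 0 (0%) between MSA_ConA and Control (3482 with an unadjusted p under 0.05, 715 called by DESeq2). None of the 7 members was among those DESeq2 calls.

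The difference between the numbers was tested in the same model. For ConA over Control, the log2 fold change in number 1 exceeded that in numbers 2 and 3 by 7.49 for Plaur (SE 0.85, adjusted p = 0.00138, edgeR), by 4.17 for F3 (SE 0.35, adjusted p = 0.000483, edgeR) and by 3.59 for Thbd (SE 0.85, adjusted p = 0.0187, edgeR). The Thbd call was lost without Control 3 (adjusted p = 0.0617) and without ConA 3 (adjusted p = 0.0518). For MSA_ConA over ConA, 2724 genes (18.7%) differed between the numbers, 8.59% of all genes being more positive in number 1 and 10.1% more negative, and F3 was among them at -7.24 (SE 0.45, adjusted p = 0.000335, edgeR). Plau was also called (adjusted p = 0.0443, edgeR), but not without any 1 of Control 2, Control 3, ConA 2 or ConA 3 (adjusted p 0.0655 to 0.0940). Plaur gave -2.85 (SE 0.87, adjusted p = 0.0604, edgeR) and Thbd -2.40 (SE 0.81, adjusted p = 0.0789, edgeR) in that comparison. For MSA_ConA over Control, 4767 genes (32.6%) differed, 16% of all genes being more positive in number 1 and 16.6% more negative, with F3 at -3.08 (SE 0.50, adjusted p = 0.00442, edgeR) and Plaur at 4.65 (SE 0.84, adjusted p = 0.00675, edgeR). Control 1 differed from Control 2 and 3 in 4062 genes (27.8%), 12.1% of all genes being higher in number 1 and 15.7% lower, and none of the 7 members was called in that comparison. Without MSA_ConA 2, the MSA_ConA over Control difference was also called for Plg (1.17, adjusted p = 0.0418, edgeR). Sex, strain and library number cannot be told apart in these data.

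Summed markers of some cell types were highest in ConA 1. The platelet sum was instead highest in MSA_ConA 1, where Itga2b alone gave 29.7 CPM, and the Kupffer cell sum in Control 1. Of the 5 platelet markers, 3 had a lower CPM in MSA_ConA 1 than in ConA 1, among them Pf4 at 3.69 against 5.63 CPM. The 5 monocyte and neutrophil markers found in the table summed to 5.10 to 53.7 CPM in MSA_ConA, 5.68 to 384 CPM in ConA and 5.21 to 10.2 CPM in Control, each maximum being a library numbered 1. In ConA 1, 3 of these 5 had a higher CPM than in Control 1, and Itgam was at 0 in every library but MSA_ConA 3. S100a8 and S100a9 alone gave 111 and 262 CPM in ConA 1, whereas Ccr2 was lower there (0.874 CPM) than in Control 1 (1.42 CPM). The 4 cholangiocyte markers summed to 4.27 to 41.4 CPM in MSA_ConA, 7.12 to 654 CPM in ConA and 5.69 to 11.5 CPM in Control, and Sox9 alone gave 636 CPM in ConA 1. The 5 platelet markers summed to 3.77 to 36.1, 4.39 to 27.0 and 5.05 to 8.35 CPM in MSA_ConA, ConA and Control, and the 4 mesothelial markers to 5.01 to 18.3, 6.14 to 34.7 and 6.19 to 10.3 CPM. T cell markers stayed low, at 3.21 to 5.42 CPM in MSA_ConA, 4.32 to 9.999 CPM in ConA and 4.32 to 5.67 CPM in Control. Kupffer cell markers summed to 136 to 305 CPM in MSA_ConA, 224 to 241 CPM in ConA and 248 to 392 CPM in Control. No marker of these lists was at 0 in all 9 libraries, and their part in the Plaur, F3 and Thbd values was not tested.

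Promoters are shown for the members that had a promoter entry, F3, Plaur and Serpinf2. F3 and Plaur hold AP-1 letters and Serpinf2 holds none. Plat, Plau, Plg and Thbd had no entry and could not be searched. RefSeq promoter windows of 300 bases (250 before to 50 after the start, build GRCm38.p6) were found for 3 of the 7 members. Capitals mark AP-1 letters (TGANTCA) and, as the third run in F3, a kappa-B-like element known from the human F3 promoter, where Rel-family factors bind it. These windows are chr3:121723287-121723586 (plus strand) for F3, chr7:24462233-24462532 (plus strand) for Plaur and chr11:75439452-75439751 (minus strand) for Serpinf2.
F3: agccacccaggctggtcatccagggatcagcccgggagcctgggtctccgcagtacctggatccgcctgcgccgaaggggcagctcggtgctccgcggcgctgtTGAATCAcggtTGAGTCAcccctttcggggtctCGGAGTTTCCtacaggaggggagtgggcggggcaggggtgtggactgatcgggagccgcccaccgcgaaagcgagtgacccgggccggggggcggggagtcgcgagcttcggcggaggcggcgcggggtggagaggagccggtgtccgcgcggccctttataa
Plaur: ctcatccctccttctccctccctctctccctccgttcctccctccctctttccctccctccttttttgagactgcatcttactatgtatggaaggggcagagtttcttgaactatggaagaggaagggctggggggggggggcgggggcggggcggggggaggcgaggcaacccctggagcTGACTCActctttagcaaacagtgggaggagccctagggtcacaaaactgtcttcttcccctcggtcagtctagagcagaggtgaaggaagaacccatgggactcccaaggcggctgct
Serpinf2: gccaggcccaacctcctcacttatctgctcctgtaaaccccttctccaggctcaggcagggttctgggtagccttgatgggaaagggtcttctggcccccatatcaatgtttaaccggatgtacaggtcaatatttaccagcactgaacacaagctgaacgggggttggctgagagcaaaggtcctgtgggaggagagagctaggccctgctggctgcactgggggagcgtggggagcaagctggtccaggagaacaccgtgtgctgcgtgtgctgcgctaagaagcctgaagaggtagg

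The F3 window held TGAATCA 146 bases and TGAGTCA 135 bases before the start, the kappa-B-like letters 113 bases before it, and GC boxes (GGGCGG, either strand) at 89, 58 and 24 bases before it. The Plaur window held TGACTCA 69 bases before the start, and the EGR letters GCGGGGGCG 109 bases before it, overlapping GC boxes at 111 and 105 bases, with another GC box at 100 bases. Searched on both strands of 32851 promoter windows, AP-1 letters were in 7.81%, EGR letters (GCGNGGGCG) in 5.55%, GC boxes in 35.7% and the NF-kappa-B pattern in 5.48%. Neither the F3 nor the Plaur window held the NF-kappa-B pattern, which had been chosen before the F3 sequence was seen. The exact kappa-B-like letters were in 12 windows (0.0365%), a search added after the F3 sequence had been seen. Serpinf2 held none of these letters, nor CACGTG (7.15% of windows) or TATAAA (13.6%), which in F3 was found on the minus strand at base 44 counted from the start. A match in letters is a description and was not tested for binding.

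Genes that regulate or feed the 7 were described by role. Among 6 tested inhibitors of fibrinolysis, 3 were higher and none lower in ConA 1 than in Control 1, beside 21% higher and 21.1% lower of all genes, with a median log2 fold change of 0.91 beside -0.06 over all genes. Thbs1, a matrix protein reported to inhibit plasmin, stood at 25.1, 0.831 and 1.86 CPM across MSA_ConA 1, 2 and 3, at 99.3, 1.14 and 0.966 CPM across ConA 1, 2 and 3 and at 0.671, 0.261 and 0.885 CPM across Control 1, 2 and 3. Like Plaur, it was high in ConA 1 and intermediate in MSA_ConA 1. Its log2 fold change within number 1 was 7.19 for ConA over Control (adjusted p = 0.000520, edgeR) and -1.99 for MSA_ConA over ConA (adjusted p = 0.0285, edgeR). Cpb2, the carboxypeptidase that trims plasminogen binding sites from fibrin, was 1.26 higher in ConA 1 than in Control 1 (adjusted p = 0.0109, edgeR). Serping1, the C1 inhibitor, was 0.89 higher (adjusted p = 0.0267, edgeR), a call lost when scaled by library totals (adjusted p = 0.160). Between MSA_ConA 1 and ConA 1, Thbs1 was the 1 of 6 called, in the lower direction, beside 15.2% of all genes lower, with a list median of -0.13.

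Of 8 tested genes of plasminogen binding, clearance and contact activation, 2 were higher and 2 lower in ConA 1 than in Control 1, near the 21% and 21.1% of all genes. Anxa2, a subunit of a surface receptor for plasminogen and Plat, was 2.36 higher on the log2 scale, and F12, factor XII, was 0.92 higher. Klkb1, plasma prekallikrein, fell by 3.08 and Plgrkt, a plasminogen receptor, fell by 1.22. By library totals 1 was higher and 3 lower, F12 being lost. Klkb1 was 2.33 higher and Anxa2 2.55 lower in MSA_ConA 1 than in ConA 1 (adjusted p = 0.00271 and 0.0215, edgeR).

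No tested gene of the tissue factor pathway had a fold change as large as that of F3 in number 1. Of 7 tested, F2, prothrombin, was 1.06 higher and F2r, the thrombin receptor, 1.39 higher in ConA 1 than in Control 1, both lost when scaled by totals, where F9, F10 and Tfpi2 were called lower instead. The 2 of 7 called higher stand beside 21% of all genes. F7, the ligand of tissue factor, had a log2 fold change of 0.19 (adjusted p = 0.518, edgeR), and Tfpi, its inhibitor, one of -0.07 (adjusted p = 0.909, edgeR). Tfpi2, a related inhibitor, fell by 1.41 in MSA_ConA 1 relative to ConA 1 (adjusted p = 0.0194, edgeR). F9, factor IX, was 0.96 higher (adjusted p = 0.0496, edgeR), a call lost by totals (adjusted p = 0.0743).

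Of 5 tested genes of the protein C pathway, Procr was the 1 called between ConA 1 and Control 1, beside 42% of all genes in either direction. Procr encodes the endothelial protein C receptor, which works beside thrombomodulin. It stood at 1.32, 0.277 and 0.980 CPM across MSA_ConA 1, 2 and 3, at 51.1, 1.81 and 0.284 CPM across ConA 1, 2 and 3 and at 1.04, 0.784 and 0.468 CPM across Control 1, 2 and 3. Within number 1 its log2 fold change was 5.60 for ConA over Control (adjusted p = 0.00693, edgeR) and -5.27 for MSA_ConA over ConA (adjusted p = 0.0143, edgeR). MSA_ConA 1 thus lay beside Control 1 for Procr, which differs from the intermediate level of Thbd. Pros1, protein S, a cofactor of activated protein C, was 1.71 higher in MSA_ConA 1 than in ConA 1 (adjusted p = 0.00148, edgeR). By library totals, Serpinc1 and Serpind1, thrombin inhibitors of plasma, were also called lower in ConA 1 than in Control 1.

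Fibrinogen genes, whose product is the substrate of thrombin and, as fibrin, of plasmin, were higher in number 1 given concanavalin A. Of 5 tested genes of fibrin and its cross-linking, 4 were higher in ConA 1 than in Control 1 and none lower, beside 21% of all genes higher, with a median log2 fold change of 2.52. Fga stood at 22782, 2835 and 2245 CPM across MSA_ConA 1, 2 and 3, at 16277, 2990 and 2999 CPM across ConA 1, 2 and 3 and at 2224, 2053 and 3416 CPM across Control 1, 2 and 3. Its log2 fold change within number 1 was 2.87 for ConA over Control (adjusted p = 0.00189, edgeR), beside 2.51 for Fgb and 2.52 for Fgg. F13b, a factor XIII chain, was 0.99 higher, which was lost by totals (adjusted p = 0.149). Between MSA_ConA 1 and ConA 1, 1 of the 5 was called, Fgg at 1.32 (adjusted p = 0.0208, edgeR). The fitted values of Fga (0.49) and Fgb (0.86) lay above 0 as well, in the library in which F3 had 3 counts. The call of Fgg stands beside 13.2% of all genes called higher in that comparison.

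Of 8 genes for transcription factors reported to act on these promoters, 7 were higher in ConA 1 than in Control 1 and 5 lower in MSA_ConA 1 than in ConA 1, beside 21% and 15.2% of all genes in those directions; by library totals Klf2 was lost (adjusted p = 0.0850), leaving 6 higher. Egr1 stood at 260.0, 37.2 and 23.01 CPM across MSA_ConA 1, 2 and 3, at 1671, 27.8 and 30.0 CPM across ConA 1, 2 and 3 and at 7.16, 7.73 and 22.5 CPM across Control 1, 2 and 3. Fos, a subunit of AP-1, measured 8.97, 0.388 and 3.15 CPM in MSA_ConA, 439.8, 2.99 and 2.10 CPM in ConA, and 3.13, 0.470 and 0.521 CPM in Control. Nfkb1 and Rela, subunits of NF-kappa-B, were 3.33 and 2.87 higher on the log2 scale in ConA 1 than in Control 1, and 3.12 and 1.11 lower in MSA_ConA 1 than in ConA 1. In numbers 2 and 3 no gene of these 6 lists was called in any of the 3 comparisons. Between MSA_ConA 1 and Control 1, the calls were 2 higher and 0 lower of 6 inhibitors, 2 and 1 of 8 plasminogen binding genes, 1 and 2 of 7 tissue factor pathway genes, 1 and 0 of 5 protein C pathway genes, 3 and 0 of 5 fibrin genes and 4 and 0 of 8 transcription factors, beside 18.8% of all genes higher and 19.9% lower. By library totals the same counts were 1 and 0, 0 and 4, 0 and 2, 1 and 3, 3 and 0, and 3 and 0, in the order of lists just given. For the 6 lists, calls in number 1 hold for single libraries and have no replicate check.

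**Figure D3:**
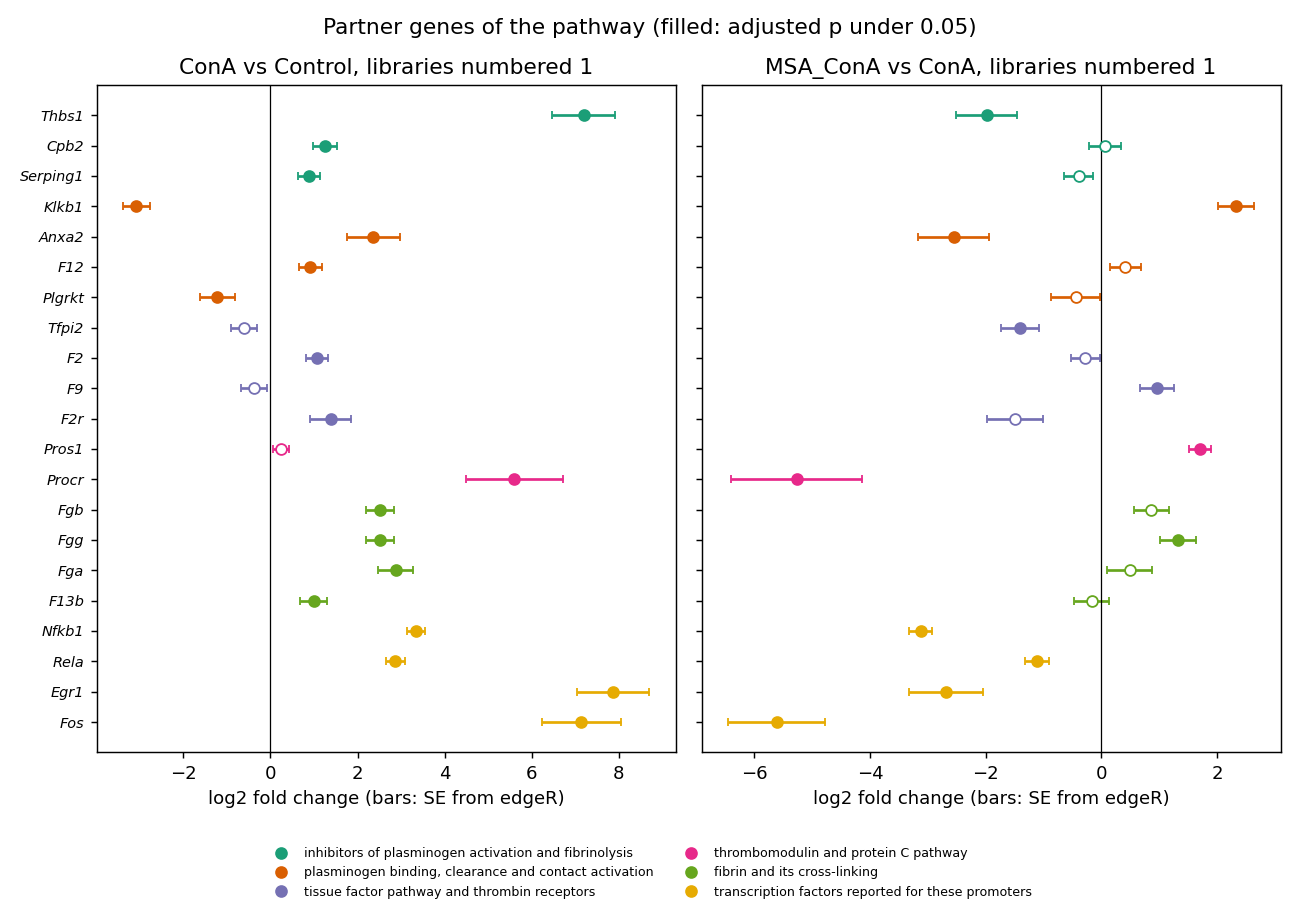
Fitted log2 fold change of 21 named genes of the pathway, coloured by role, within the libraries numbered 1, for ConA over Control (left) and MSA_ConA over ConA (right); bars are edgeR standard errors, and filled points have an adjusted p under 0.05. Egr1 at 7.87 and Thbs1 at 7.19 lie farthest to the right on the left panel, and Fos at -5.61 and Procr at -5.27 farthest to the left on the right panel.

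Across the 9 libraries, the members fell into several patterns, described by Pearson's r of log2(CPM + 1). Plg and Serpinf2 were alike (r = 0.950), as were Plat and Thbd (r = 0.927) and Plaur and Thbd (r = 0.896), while F3 was less like Plaur (r = 0.530) and unlike Plg (r = 0.0392). Plaur also gave r = 0.764 with Plg and r = 0.757 with Serpinf2. All r are from CPM scaled by TMM, and r by library totals was not computed. The points share libraries that stand apart by number, so these values describe the 9 libraries and carry no p. The genes most like Plaur were Fam160a2, Sox9 and S100a9 (r = 0.995 to 0.996). Those most like F3 were Irgm1, Tmem140 and Crp (r = 0.988 to 0.991), and those most like Thbd were Hoxa5, Mlxip and the endothelial cadherin Cdh5 (r = 0.983 to 0.984). Cdh5 stood at 34.0, 18.4 and 34.5 CPM across MSA_ConA 1, 2 and 3, at 61.3, 19.4 and 20.3 CPM across ConA 1, 2 and 3 and at 20.8, 20.4 and 19.7 CPM across Control 1, 2 and 3, with the same 3 libraries high as for Thbd. Of the other endothelial markers, Kdr, Stab2, Clec4g, Eng and Egfl7 were lower in CPM in ConA 1 than in Control 1, Kdr at 3.59 CPM in ConA 1 against 19.8 CPM in Control 1, and Pecam1 and Lyve1 were higher. Plat was most like Lox (r = 0.982), Pde4d (r = 0.963) and Olfml2b (r = 0.961), and Plau most like Gys1 (r = 0.974), Cd200 (r = 0.971) and Rragd (r = 0.956). Col18a1 headed the lists of both Plg (r = 0.986) and Serpinf2 (r = 0.961), followed by Pla2g6 (r = 0.977) and Zfp574 (r = 0.976) for Plg and by Itih1 (r = 0.955) for Serpinf2.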

How the data were processed

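The authors deposited raw counts per gene for 9 libraries, and FPKM values in which counts are scaled by gene length and library size. The submitters' processing notes name Bowtie (0.12.2) and both mm8 and mm10, without saying what each was for; which tool made the counts is not given in the sources used here. RNA was extracted with Trizol, per the labels' protocols. Gene identifiers and positions in the tables belong to the C57BL/6NJ assembly, where Plg is at chr17:10419468-10461280 (plus), Serpinf2 at chr11:78563225-78571136 (minus), Plaur at chr7:23537135-23550346 (plus), Thbd at chr2:157191956-157195678 (minus), F3 at chr3:128415685-128427291 (plus), Plau at chr14:14111785-14118508 (plus) and Plat at chr8:21482094-21511448 (plus), all whole protein-coding genes that overlap no other gene listed. The columns headed M were taken as MSA_ConA by that initial and their number.

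Counts were tested with edgeR 4.0.16 (R 4.3.3): quasi-likelihood, TMM, the default filter by group, 1 fit over the 9 libraries (residual degrees of freedom 6), adjusted p under 0.05. A model with 1 mean per group and number class (number 1; numbers 2 and 3) gave the values within numbers and their differences. Alternatives used DESeq2 1.42.0, limma 3.58.1 (also on log2(FPKM + 1) of the deposited values), other scalings and filters, and left-out libraries. Scripts were tested on simulated counts. p-values measure the spread between libraries. In the model by number class, that spread came only from the pairs numbered 2 and 3, not from the libraries numbered 1. Promoters were searched with Python 3.11.15.

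The members, gene lists, marker lists and number classes were chosen with earlier results of these data known. Pathway genes are named by a rule: up to 4 per list, of at least 1 CPM on average and called in number 1, by smallest p, and Tfpi, Procr, F7 and Fga in any case; the 3 most similar genes of each member by r. Some genes that the rule would name are not reported here, nor counted in the lists. Eno1, Lrp1, Kng2, Ly6c2 and Lyz2 matched no gene name and are not analysed here; Serpinb2, A2m, F2rl1, F2rl3 and Serpina5 were too low to be tested. No 2 libraries of a group agreed within sampling noise (chi-square per degree of freedom 20.9 to 596). Deviations from group means correlated between same-numbered libraries with r between 0.337 and 0.720, all over the bound of 0.1 for taking numbers as pairs; libraries numbered 2 correlated with those numbered 3 at 0.332 to 0.706.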

Additional observations from a re-analysis of the deposited data

Results flagged for a closer look

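Fold changes that differed between the libraries numbered 1 and those numbered 2 and 3, by a test of the difference itself, are listed here. Values are differences of log2 fold changes, number 1 minus numbers 2 and 3, with p-values adjusted by edgeR over all genes. For ConA over Control, Plaur differed by 7.49 (adjusted p = 0.00138), F3 by 4.17 (adjusted p = 0.000483) and Thbd by 3.59 (adjusted p = 0.0187). For MSA_ConA over ConA, F3 differed by -7.24 (adjusted p = 0.000335). Plau differed in that comparison with an adjusted p of 0.0443, and its size has no bound from the fit because MSA_ConA 1 had no count. For MSA_ConA over Control, Plaur differed by 4.65 (adjusted p = 0.00675) and F3 by -3.08 (adjusted p = 0.00442). Number 1 is a single library per group, and sex, strain and number cannot be told apart.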

How the results depend on the processing

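In number 1 and in the difference between numbers, calls for Plaur and F3 that edgeR made with TMM held under DESeq2, under both other scalings and on leaving out each library numbered 2 or 3, left out for single members after the data were seen; those for Thbd and Plau did not all hold, as given with their values. The replicate block changed no call and reversed Plg (-0.0047) and Serpinf2 (-0.0201) for ConA over Control, Plau (-0.50) for MSA_ConA over ConA and Plg (-0.11) for MSA_ConA over Control. None of these reversed values was past the threshold, and their cause was not tested.

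Library totals gave, over all libraries, Plg -0.11 and Serpinf2 -0.13 for ConA over Control, Plat 0.0270 for MSA_ConA over ConA and Plg -0.29 for MSA_ConA over Control. In number 1 they gave Plg -0.13 and Serpinf2 -0.0937, Plg -0.0517, and Plg -0.18 and Serpinf2 -0.40 in those comparisons. For the differences they gave Plg -0.0200, Serpinf2 -0.13 and Serpinf2 -0.0705, and for Control 1 over Control 2 and 3 Plg -0.10. For the differences, higher calls made up 24.2% by totals against 50.4% by TMM, 27.1% against 46.1% and 15.5% against 49.1% of all calls, and for Control 1 they made up 22.2% against 43.7%; totals moved the median of all genes by -0.54, -0.28, -0.82 and -0.27 in these. limma-voom reversed Plau (-0.69) and Thbd (0.0047) for MSA_ConA over ConA and Plg (-0.10) for MSA_ConA over Control. No filter reversed Serpinf2 (-0.0122) for ConA over Control and Plg (-0.0502) for MSA_ConA over Control. limma on FPKM reversed Plau (-0.10) for MSA_ConA over ConA and Plg (-0.0940) for MSA_ConA over Control. A fit without the 3 libraries numbered 1, chosen after the data were seen, gave Plg -0.18 and Serpinf2 -0.22 for ConA over Control, Plat 0.51, Thbd 0.86 and F3 0.11 for MSA_ConA over ConA, and Plg -0.44 and F3 0.12 for MSA_ConA over Control.

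DESeq2 called 2 genes for ConA over Control and 55 for MSA_ConA over Control, and in numbers 2 and 3 it called 59, 2 and 715 for ConA over Control, MSA_ConA over ConA and MSA_ConA over Control. It added, for the differences, Plaur (-2.81, adjusted p = 0.0273) and Thbd (-2.36, adjusted p = 0.0346) for MSA_ConA over ConA and Plg (1.04, adjusted p = 0.0141) for MSA_ConA over Control. Without a filter, numbers 2 and 3 gave 61, 3 and 1009 calls. At an adjusted p under 0.01, number 1 gave 3288, 1663 and 3106 calls, the differences 1864, 783 and 2075, and Control 1 over Control 2 and 3 gave 1340.

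Leaving out each library in turn, calls in numbers 2 and 3 ranged from 0 to 4, 0 to 92 and 0 to 396 in the 3 comparisons; the non-zero counts came without ConA 3 (4 and 4) and without MSA_ConA 2 (92 and 396). Calls for the MSA_ConA over ConA difference ranged from 1368 (without ConA 3) to 2403, with 1631 without ConA 2, and for Control 1 from 1340 (without Control 3) to 4238. Over all libraries, members that changed sign ranged as follows. For ConA over Control, Plaur ran from -1.13 to 7.11, Plg from -0.22 to 0.16 and Serpinf2 from -0.19 to 0.15. For MSA_ConA over ConA, Plat ran from -0.49 to 0.64, Plau from -1.99 to 0.82, Plaur from -7.92 to 4.27, Plg from -0.54 to 0.21, Serpinf2 from -0.42 to 0.0528 and Thbd from -1.30 to 1.28. For MSA_ConA over Control, F3 ran from -0.65 to 0.27, Plau from -0.97 to 1.71, Plaur from -1.51 to 3.83, Plg from -0.50 to 0.23 and Serpinf2 from -0.40 to 0.0333. For the differences, Plat ran from -1.87 to 0.0152 and Serpinf2 from -0.0571 to 0.30 for MSA_ConA over ConA, and Plat from -1.04 to 0.89 for MSA_ConA over Control. Leaving out MSA_ConA 2 brought calls of the difference for Thbd (-2.99, adjusted p = 0.00641) in MSA_ConA over ConA and for Plau (adjusted p = 0.0189) in MSA_ConA over Control. Leaving out MSA_ConA 3 brought them for Plaur (-3.66, adjusted p = 0.0217) in MSA_ConA over ConA and for Thbd (2.18, adjusted p = 0.0135) in MSA_ConA over Control.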

Other observations

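A2m, whose product alpha-2-macroglobulin traps plasmin among other proteases, was too low in most libraries to be tested and was chosen after its values were seen. It had 8, 0 and 0 counts in MSA_ConA 1, 2 and 3, 849, 6 and 0 counts in ConA, and 4, 0 and 1 counts in Control. ConA 1 was 276-fold higher than Control 1 (95% counting interval 108 to 1016) and MSA_ConA 1 was 78.1-fold lower than ConA 1 (39.5 to 181), with no replicate check. Serpina5, the protein C inhibitor, also below the filter and chosen after its values were seen, had 33, 11 and 2 counts in MSA_ConA, 5, 4 and 6 in ConA, and 0, 5 and 8 in Control.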
